A study of Mus musculus with 26 samples.

Results

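The complement genes followed here in sorted heart stroma were C1ra, C4b, C2, C3, Cfb, Serping1 and Clu. They were found by symbol, as 7 of the 24421 gene rows of each count table, and every one had reads in all 26 libraries, with 17 reads as the lowest count. The cells were Pdgfra-expressing stromal cells of C57BL/6 mice that carry the B6.129S4-Pdgfratm11(EGFP)Sor/J allele, in which Pdgfra regulatory sequence drives a nuclear green fluorescent protein, and they were depleted of CD45 and CD31 positive cells. Each sort was divided by the surface protein SCA-1. Hearts were undamaged or had infarcts from tying off the left anterior descending (LAD) coronary artery, sampled 7, 14 or 28 days later, and all groups carry the reporter allele. Sca-1 positive and negative libraries numbered 5 and 4 without damage, 2 of each at day 14, and 4 and 3 at day 28. At day 7, 1 library of each gate was labelled, and 4 more have no gate in their labels. For these 4 the file name carries a pos or neg mark, which was used for description and in fits named as such. Titles also divide the libraries into 2 families, those with a number before the replicate code (called prefixed below) and those without (unprefixed). Nothing in the labels ties libraries to individual mice, so p-values measure only the spread between libraries, which may be technical.

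Complement is a cascade of secreted proteases and binding proteins. In the classical route C1r and C1s are held by C1q, and C1s cuts C4 and then C2. The fragments form an enzyme that cuts C3. In the alternative route factor B, the product of Cfb, forms the C3-cutting enzyme with C3 itself and so amplifies the reaction. Serping1 encodes the C1 inhibitor, which blocks C1r and C1s, and Clu encodes clusterin, a secreted chaperone that also binds terminal complement complexes. The liver makes most plasma complement, and fibroblasts and macrophages make part of it in tissues.

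The libraries held 6792786 to 48836726 reads in genes, so that 3 reads correspond to 0.0614 to 0.442 CPM (reads scaled to the library total, with trimmed-mean, TMM, library factors). Ly6a, which encodes SCA-1, was 279.6 to 1284 CPM in the labelled positive libraries and 18.8 to 91.9 CPM in the labelled negative ones, and the 4 unlabelled day 7 libraries had 296 and 334 CPM (pos mark) against 35.9 and 31.7 CPM (neg mark). Summed cardiac fibroblast markers were 57628 to 93718 CPM. Ptprc (CD45) stayed at or below 2.05 CPM, and Pecam1 (CD31) was 1.78 to 55.3 CPM. The Sca-1 positive day 28 library E2 had 55.8% of its reads outside genes (18.7% or less elsewhere). The Sca-1 positive day 28 library B6 carried genes of liver stroma, chosen after the values were seen, such as Reln with 418 CPM and Colec11 with 253 CPM, where no other library passed 4.51 and 27.9 CPM. Alb, the albumin gene, reached 162 CPM in the undamaged Sca-1 negative library F3 and was above 20 CPM in 6 libraries. Member results at day 28 that rest on the families or on time were also computed without B6 and E2.

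C3 and Serping1 were the most abundant of the members. Per kilobase of exon, the median over the 26 libraries was 1338 CPM for Serping1 and 1217 CPM for C3, followed by 97.3 CPM for C4b, 79.9 CPM for C1ra, 18.7 CPM for Clu, 9.21 CPM for Cfb and 3.22 CPM for C2. The ranges over libraries overlapped between all neighbours in this order. Between the lowest and the highest library, the level of Cfb spanned 118-fold, Clu 88.0-fold, C2 49.3-fold, C4b 11.6-fold, C3 9.45-fold, C1ra 3.70-fold and Serping1 3.17-fold. In bulk libraries, fewer expressing cells and less RNA per cell cannot be told apart.

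**Figure D1:**
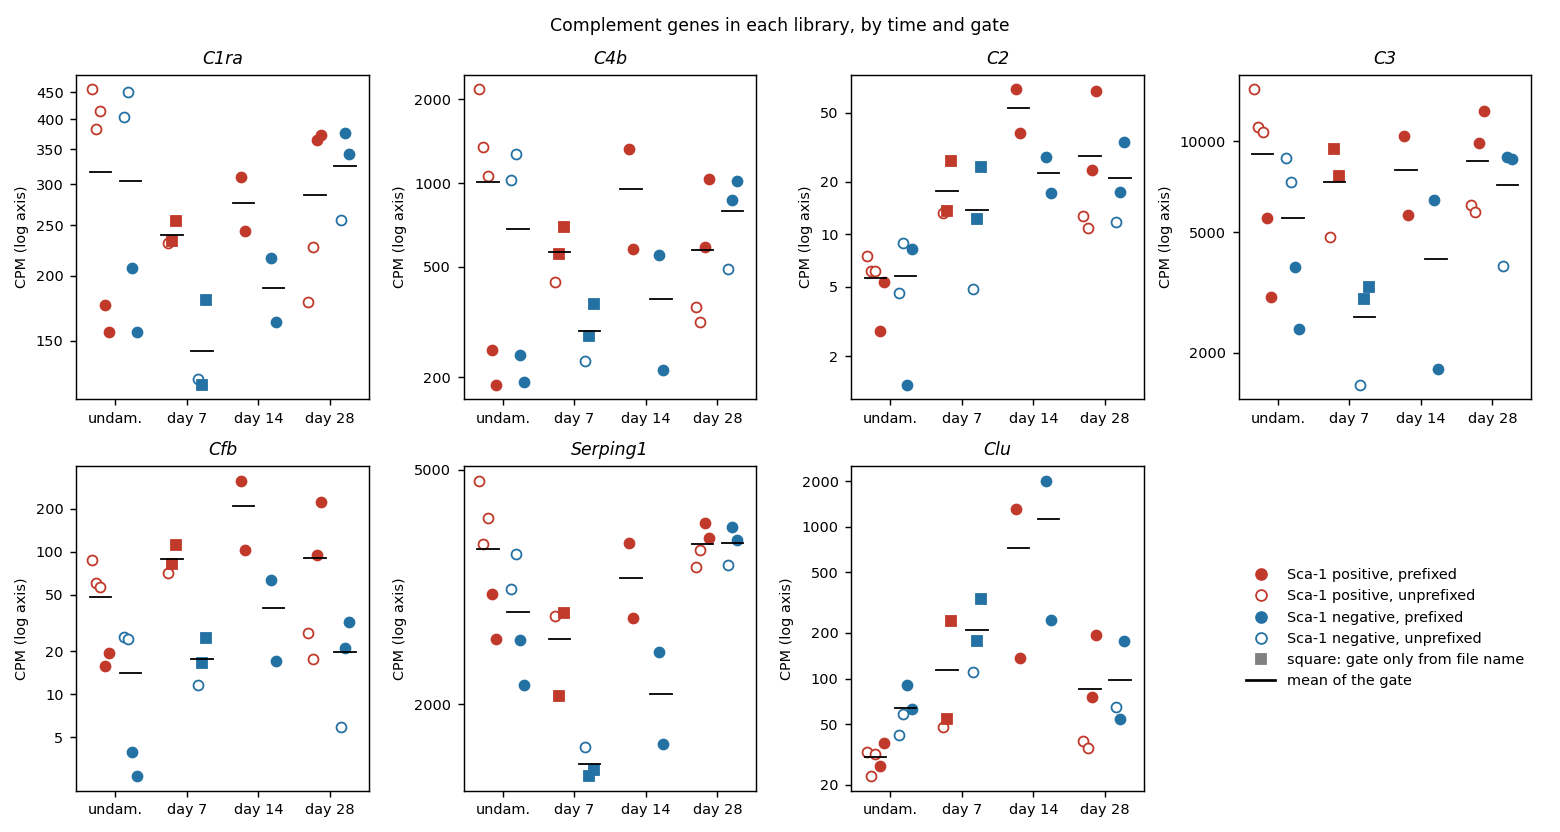
CPM of each member (log axis) in every library, by time, with Sca-1 positive (red) left of Sca-1 negative (blue) and black lines at the mean of each gate. Filled points are prefixed libraries, open points unprefixed ones, and squares are day 7 libraries whose gate comes only from the file name. Clu is highest at day 14, Cfb lies higher in the positive gate at each time, and filled and open points of C4b change places between undamaged hearts and day 28.

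Of the members, C4b, Cfb, C2 and C3 lie on mouse chromosome 17 (GRCm38, GENCODE M21). C4b spans chr17:34728380-34743882, Cfb chr17:34856374-34862518, C2 chr17:34862604-34898265 and C3 chr17:57203970-57228136, each on the minus strand. C2 and Cfb are adjacent, with 85 bases between them, and a further annotated gene, Gm20547, overlaps both on the same strand. C4b has a near-identical neighbour in C4a, and C1ra (chr6:124512405-124523443, plus strand) in C1rb. Whether the counting could divide reads between these copies is not given in the sources used here, so the levels of C2, Cfb, C4b and C1ra carry that uncertainty. Serping1 lies at chr2:84765387-84775444 (minus strand) and Clu at chr14:65968483-65981547 (plus strand).

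RefSeq promoter windows were held for 2 of the 7 members, C3 and C1ra. The 250 bases before the C3 start (GRCm38.p6, chr17:57228137-57228386, minus strand) are shown because C3 is the member on which all routes of the cascade meet and its window holds a match; capitals mark it.
C3: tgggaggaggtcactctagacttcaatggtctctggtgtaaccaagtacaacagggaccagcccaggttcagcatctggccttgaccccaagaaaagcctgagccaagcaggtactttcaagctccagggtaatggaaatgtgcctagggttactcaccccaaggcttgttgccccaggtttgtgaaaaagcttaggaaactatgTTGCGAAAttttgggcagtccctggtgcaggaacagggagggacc
The match, at -45 to -38 from the start, is to a C/EBP motif searched as TTGC and AA separated by 2 bases. C/EBP factors are transcription factors of the acute-phase response. Of 32851 promoter windows of the same length, 9.56% hold such a match on either strand. Neither window holds a kappaB motif (GGGA and TTCC separated by 2 bases, 1.21% of windows), a GAS motif (TTC and GAA separated by 3 bases, 7.02%) or an ISRE (GAAA and GAAA separated by 2 bases, 2.98%), and the C1ra window holds no C/EBP match. A match in letters does not show that a factor binds there. The C1ra window (chr6:124512371-124512620, plus strand) lies mostly past the GENCODE start of the gene at 124512405, so the 2 annotations place that start differently.

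Most of the members differed between the library families, and in opposite directions in undamaged hearts and at day 28. In undamaged hearts 5 of the 7 were lower in prefixed libraries than in unprefixed ones, and none of the others was called higher, where 9.02% of all genes tested were called. At day 28 again 5 of the 7 differed, but all 5 were higher in prefixed libraries, beside 8.06% of all genes. Gate was a term in both fits.

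C4b encodes the fourth component, which C1s cuts before C2. In undamaged hearts its level was 251 and 188 CPM in the prefixed positive libraries and 239.8 and 192 CPM in the prefixed negative ones, against 2175, 1349.7 and 1063 CPM in the unprefixed positive libraries and 1026 and 1275 CPM in the unprefixed negative ones. The families did not overlap in either gate, and prefixed libraries were lower by a log2 difference of -2.59 ± 0.22, adjusted p = 9.1e-05 (edgeR quasi-likelihood test, Benjamini-Hochberg adjustment over all genes). At day 28 the prefixed positive libraries had 591 and 1038 CPM and the prefixed negative ones 871 and 1015 CPM, against 356 and 317 CPM in the unprefixed positive libraries and 491 CPM in the unprefixed negative one. Again no values overlapped, now with the prefixed libraries higher (1.14 ± 0.21, adjusted p = 0.0129).

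Cfb followed the same course. In undamaged hearts it was 15.9 and 19.4 CPM (prefixed) against 88.2, 60.8 and 57.0 CPM (unprefixed) in the positive gate, and 3.97 and 2.67 CPM (prefixed) against 25.3 and 24.6 CPM (unprefixed) in the negative gate. At day 28 it was 94.6 and 223 CPM (prefixed) against 26.7 and 17.6 CPM (unprefixed) in the positive gate, and 21.04 and 32.2 CPM (prefixed) against 5.86 CPM (unprefixed) in the negative gate. Within each gate the families did not overlap at either time, and the log2 difference was -2.31 ± 0.23, adjusted p = 0.000195, in undamaged hearts and 2.62 ± 0.35, adjusted p = 0.00225, at day 28. 

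C3, the central component, was 5562 and 3049 CPM (prefixed) against 14822, 11094 and 10739.8 CPM (unprefixed) in positive cells of undamaged hearts, and 3841 and 2399 CPM (prefixed) against 8794 and 7309.9 CPM (unprefixed) in the negative gate. At day 28 it was 9852 and 12561 CPM (prefixed) against 6153 and 5838 CPM (unprefixed) in the positive gate, and 8889.9 and 8697 CPM (prefixed) against 3873 CPM (unprefixed) in the negative gate. Here too the families did not overlap within a gate at either time.

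The remaining calls in undamaged hearts were C3 (-1.41 ± 0.21, adjusted p = 0.00232), C1ra (-1.26 ± 0.13, adjusted p = 0.000195) and Serping1 (-0.51 ± 0.13, adjusted p = 0.0333), all lower in prefixed libraries. The Serping1 call was lost when any 1 of 7 of the 9 libraries was left out (adjusted p up to 0.110). At day 28 C2 (1.59 ± 0.39, adjusted p = 0.0358), C3 (1.02 ± 0.15, adjusted p = 0.00445) and C1ra (0.72 ± 0.16, adjusted p = 0.0261) were higher in prefixed libraries. C2 lost its call on leaving out any 1 of the 7 libraries other than the B4 pair (adjusted p of 0.0508 to 0.0999), and C1ra on leaving out the positive F2 library or any B4 or B6 library (0.0540 to 0.0891), so that the count was 3 of 7 at its lowest. Without the positive B6 and E2 libraries together, 5 of 7 were called. The median of the members was a log2 difference of -1.26 in undamaged hearts and 1.14 at day 28, where the median of all genes was 0.00 and -0.02.

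The change between undamaged hearts and day 28 was therefore tested within each family. This took 1 fit of 16 libraries with time by family and with gate within each time, added after the data were seen. The gate term, shared by both families, marks the positive gate at each time. A change within a family is therefore read in the Sca-1 negative gate. The fit takes the difference between the families to be the same in both gates, and this was not tested. Read so, 6 of the 7 members rose by day 28 in the prefixed family (9.87% of all genes were called). On the log2 scale C4b rose by 2.30 ± 0.27, Cfb by 2.78 ± 0.37, C2 by 2.61 ± 0.53, C3 by 1.48 ± 0.25, C1ra by 1.10 ± 0.17 and Serping1 by 0.74 ± 0.17. Their adjusted p was at most 0.00915. Clu was not called. Its prefixed libraries went from 91.4 and 63.1 CPM to 54.2 and 176 CPM in the negative gate. In the positive gate they went from 26.5 and 37.4 CPM to 75.7 and 193 CPM. In the unprefixed family, read in the same gate, C4b (-1.47 ± 0.31, adjusted p = 0.00983), Cfb (-2.17 ± 0.40, adjusted p = 0.00342) and C1ra (-0.91 ± 0.19, adjusted p = 0.0096) fell, while 3.71% of all genes were called. C3 was -0.98 ± 0.29 there, short of the threshold (adjusted p = 0.0743), and the C4b call was lost without the negative E4 library (adjusted p = 0.0887).

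The difference between the 2 changes combines the 2 family differences above in 1 test and is no separate evidence of them. It was called for 6 of the 7 members, against 12.6% of all genes, and was largest for Cfb (4.96 ± 0.43, adjusted p = 4.41e-07) and C4b (3.77 ± 0.33, adjusted p = 5.54e-07), followed by C3 (2.46 ± 0.30, adjusted p = 2.27e-05), C2 (2.18 ± 0.62, adjusted p = 0.0265), C1ra (2.01 ± 0.20, adjusted p = 2.68e-06) and Serping1 (0.72 ± 0.20, adjusted p = 0.024). Clu did not pass (1.08 ± 0.48, adjusted p = 0.154). Without B6 and E2 the count was 5 of 7, and C2 lost its call (1.70, adjusted p = 0.135), while 6 members were called within the prefixed and 3 within the unprefixed family. On leaving out single libraries the count was 4 to 7. C2 lost its call without the undamaged negative F3, the day 28 positive E2, F2 or B6, or the day 28 negative B6 library, Serping1 lost it without the undamaged negative F3, the day 28 negative E4 or the day 28 positive B4 library, and Clu gained one without the day 28 negative B4 library. With no filter on low counts Serping1 was not called (adjusted p = 0.0618) and Clu was (adjusted p = 0.0155). Each prefix number occurs at a single time, 67 in undamaged hearts and 60 at day 28, so that number and the time after ligation cannot be told apart in the prefixed family.

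**Figure D2:**
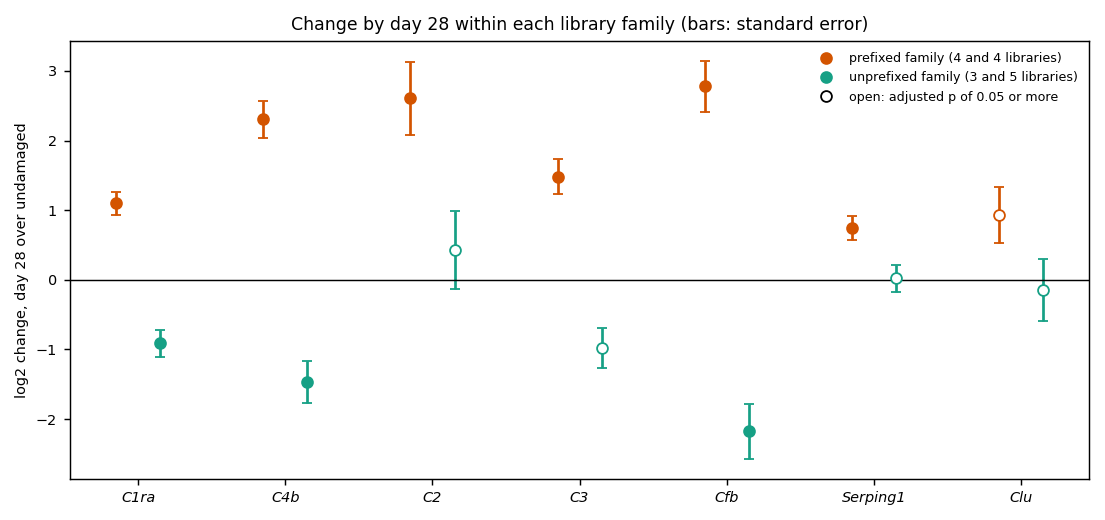
Log2 change of each member between day 28 and undamaged hearts, read in the Sca-1 negative gate. It was fitted within the prefixed family (orange, left) and the unprefixed family (green, right). Bars are standard errors, and open points have an adjusted p of 0.05 or more. C4b, Cfb and C1ra lie above 0 in the prefixed family and below 0 in the unprefixed one.

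Several measures moved with the families. Of 18 genes of the NF-kB and acute response, 14 were lower in prefixed undamaged libraries, 15 were higher in prefixed day 28 libraries, and 17 differed in their change, where 9.02%, 8.06% and 12.6% of all genes were called. Il6, an inflammatory cytokine, had 63.5 and 141 CPM in the prefixed positive undamaged libraries and 352, 449.9 and 534 CPM in the unprefixed ones, and 845 and 1659.6 CPM (prefixed) against 128 and 81.4 CPM (unprefixed) at day 28. Of 24 interferon response genes, 13 were lower in prefixed undamaged libraries, and 2 were higher and 1 lower in prefixed day 28 libraries. Genes detected were fewest in 3 prefixed undamaged libraries (12325, 12634 and 12977, against up to 16013 elsewhere). In undamaged hearts Ly6a was 280 and 319 CPM (prefixed) against 1284, 725 and 791 CPM (unprefixed) in the positive gate. In the negative gate it was 18.8 and 22.2 CPM against 77.5 and 91.9 CPM. At day 28 Ly6a was 400 and 381 CPM (prefixed) against 292 and 325 CPM (unprefixed) in the positive gate. In the negative gate it was 42.6 and 56.2 CPM against 25.5 CPM. The part of these measures in the differences of the members was not tested.

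Among 50 other complement genes, 25 could be tested in undamaged hearts and 31 at day 28. C1s1, the protease partner of C1ra, was lower in prefixed undamaged libraries (-1.47 ± 0.15, adjusted p = 0.000195) and higher in prefixed day 28 libraries (0.76 ± 0.14, adjusted p = 0.0128), and its change differed between the families (2.26 ± 0.21, adjusted p = 1.23e-06). At day 28 Vtn (vitronectin, 2.06 ± 0.49, adjusted p = 0.0338) was higher and Cd93 (-1.60 ± 0.37, adjusted p = 0.029), a surface receptor of endothelium, was lower in prefixed libraries. The Vtn value includes the prefixed library B6, which carried liver genes, and the part of B6 in it was not tested. C7, a component of the membrane attack complex, changed differently between the families (1.45 ± 0.41, adjusted p = 0.0269). Csmd1 and C6 were also called, with at most 4.93 CPM for Csmd1 in any library.

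Between the gates, Cfb was higher in the positive library of every pair that shares a replicate code. The 7 such pairs lie at undamaged, day 14 and day 28, and the positive library had 2.32, 4.01 and 7.28 times the CPM of its negative partner in undamaged hearts, 4.98 and 5.97 times at day 14, and 4.50 and 6.94 times at day 28. All 7 ratios lay above 1, and the share of all genes with this pattern was not counted. At day 14 the levels were 316 and 103 CPM in positive libraries against 63.4 and 17.2 CPM in negative ones, without overlap. In the fit without pairing, edgeR called 0 of the 7 members in undamaged hearts, at day 14 or at day 28, with 1 member at an unadjusted p under 0.05 each time and 0 called by DESeq2. The background of that fit was 3.10% of all genes in undamaged hearts, 0.0507% at day 14 and 0.594% at day 28.

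With the replicate code as a block, Cfb was higher in the positive gate at each of these times, by 1.93 ± 0.26, adjusted p = 0.00164, in undamaged hearts, 2.46 ± 0.30, adjusted p = 0.00383, at day 14 and 2.48 ± 0.30, adjusted p = 0.00253, at day 28 (without the block 1.76 ± 0.80, adjusted p = 0.281; 2.39 ± 1.18, adjusted p = 1; and 2.19 ± 0.93, adjusted p = 0.281). Clu was lower in positive cells of undamaged hearts with the block (-1.14 ± 0.19, adjusted p = 0.00551; without it -1.08 ± 0.61, adjusted p = 0.408). C4b was higher in the positive gate at day 14 with the block (1.37 ± 0.18, adjusted p = 0.00672; without it 1.33 ± 0.98, adjusted p = 1), and C3 did not pass there (1.21 ± 0.23, adjusted p = 0.0508). The blocked counts were 2, 2 and 1 of 7 members for undamaged, day 14 and day 28 hearts, beside 4.19%, 0.434% and 0.717% of all genes. The blocked day 28 values rest on 2 pairs, of which 1 holds library B6. Since a code belongs to 1 family, the block also takes out the difference between families.

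In undamaged hearts Clu was 32.9, 22.9, 32.0, 26.5 and 37.4 CPM in the 5 positive libraries against 42.6, 58.8, 91.4 and 63.1 CPM in the 4 negative ones. The gates did not overlap. At day 28 the paired, prefixed libraries had ratios of 1.40 and 1.10, while the unprefixed libraries had 38.9 and 34.8 CPM (positive) against 65.5 CPM (negative), in the order of undamaged hearts. Mural markers were also lower in positive cells of undamaged hearts, 2 of 6 by test, with a summed level of 93.0 to 138 CPM in positive libraries and 244 to 509 CPM in negative ones, and their part in the Clu difference was not tested. For C3 and Serping1 all 7 ratios lay above 1 as well, between 1.11 and 3.24 for C3 and between 1.01 and 1.64 for Serping1. C2, C4b and C1ra had ratios on both sides of 1.

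**Figure D3:**
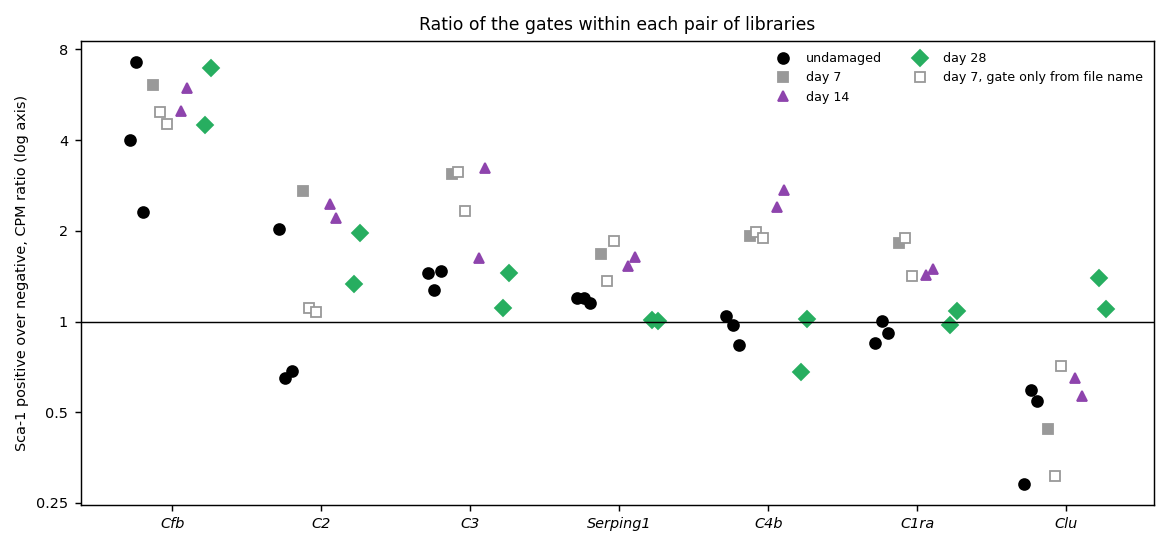
Ratio of the CPM of the Sca-1 positive library to that of its negative partner (log axis) for each member and pair, with colour and shape for time; open squares are day 7 pairs whose gate comes only from the file names. Cfb lies between 2.32 and 7.28 in the 7 pairs of undamaged, day 14 and day 28 hearts, and Clu lies below 1 except at day 28.

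At day 7 the 2 labelled libraries were set side by side without a test. Cfb had 70.9 CPM in the positive library against 11.6 CPM in the negative one, C3 4832 against 1568 CPM, C2 13.3 against 4.90 CPM and Clu 48.3 against 110.2 CPM. These 4 members were past 2-fold (log2 ratio of CPM + 0.5), as were 3.60% of all genes. In the pairs marked in the file names, the pos library had 4.97 and 4.53 times the Cfb of the neg library. All members except Clu had ratios above 1 in each of the 3 day 7 pairs. The share of all genes with such ratios was not counted. With the gate taken from these marks, 0 of 7 members were called by edgeR at day 7 (3 at an unadjusted p under 0.05, and 0.206% of all genes called).

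No member was called for a change of its gate difference after ligation, at day 14 or day 28, with edgeR or DESeq2. With edgeR and without the block, none reached an unadjusted p under 0.05, and 0% of all genes were called at either time. DESeq2 called 0.0145% of all genes at day 14 and 0.029% at day 28. With the block, 4 members at day 14 and 1 at day 28 had an unadjusted p under 0.05, and none was called. Of the other complement genes, Cd55, the membrane regulator that speeds decay of the C3-cutting enzymes, was higher in positive cells of undamaged hearts (1.96 ± 0.21, adjusted p = 1.63e-05) and at day 28 (1.62 ± 0.24, adjusted p = 0.00239), and with the marks at day 7 (1.39 ± 0.25, adjusted p = 0.00959). In undamaged hearts Vtn (-3.12 ± 0.79, adjusted p = 0.0326) and Colec12 (-0.61 ± 0.16, adjusted p = 0.0366), a scavenger collectin, were lower in the positive gate. Hepatocyte markers, chosen after the values were seen, summed to 0.568 to 13.7 CPM in positive and 0.682 to 218 CPM in negative undamaged libraries. The part of these and of the mural markers given above in the Vtn value was not tested. With the block Cd55 was higher in the positive gate at day 14 too (1.09 ± 0.16, adjusted p = 0.0113). With the block C7 was also higher in positive cells of undamaged hearts (1.24 ± 0.23, adjusted p = 0.011) and at day 14 (1.57 ± 0.29, adjusted p = 0.0415). C1qa, a chain of C1q, was called in undamaged hearts with the block, where the negative partners had 0 to 0.227 CPM, and C1qb and C1qc were lower in the positive A6 library than in its partner.

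With the families pooled, Clu and C2 were the members that rose after ligation, with Clu highest at day 14 in both gates. Over both gates and families, Clu averaged 45.3 ± 22.0 CPM in undamaged hearts (SD, n = 9), 161 ± 113 CPM at day 7 (n = 6), 924 ± 897 CPM at day 14 (n = 4) and 91.2 ± 65.5 CPM at day 28 (n = 7). The rise was called at day 7 (1.83 ± 0.50, adjusted p = 0.00867) and at day 14 (4.35 ± 0.56, adjusted p = 5.28e-06) and not at day 28 (1.01 ± 0.48, adjusted p = 0.24). 

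At day 14 the Clu level split by replicate code. D1 had 1304 CPM in the positive library and 2013 CPM in the negative one, and D9 had 137 and 242 CPM in the same order, so D1 was 9.53 and 8.32 times D9. Each of the 4 lay above all 9 undamaged libraries. Without both D1 libraries the rise was smaller and still called (2.07, adjusted p = 0.0353). Within the gates, with 2 day 14 libraries each, the rise was 4.59 ± 0.72, adjusted p = 0.0012, in the positive gate and 4.13 ± 0.78, adjusted p = 0.00407, in the negative gate, and without the D1 library of that gate neither was called (2.18, adjusted p = 0.373, and 1.90, adjusted p = 0.468). Xist, the transcript of the inactive X chromosome, was 0.348 and 0.665 CPM in the D1 libraries and 294 and 814 CPM in the D9 libraries, and epicardial and mesothelial markers summed to 75.6 and 176 CPM in D1 and 24.98 and 58.3 CPM in D9. The same markers summed to 0 to 8.91 CPM in the 9 undamaged libraries, 7.06 to 75.8 CPM at day 7 and 9.45 to 100.3 CPM at day 28. Xist was at most 0.432 CPM in undamaged libraries. At day 7 it was 53.2, 106, 231 and 333 CPM in 4 of the 6 libraries, and 3.14 and 0 CPM in the unlabelled libraries 1A and 1B. It thus moves with the day 7 changes given here in part of the libraries. In the unprefixed family both day 7 libraries carry it (53.2 and 106 CPM), so Xist and time cannot be told apart there. The part of these in the changes with time was not tested.

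C2, the protease that C1s cuts after C4, averaged 5.69 ± 2.48 CPM in undamaged hearts (SD, n = 9), 15.8 ± 8.13 CPM at day 7 (n = 6), 37.7 ± 21.9 CPM at day 14 (n = 4) and 25.2 ± 19.8 CPM at day 28 (n = 7). Its level was low throughout, and the 4 day 14 libraries (67.9 and 38.0 CPM positive, 27.8 and 17.2 CPM negative) and the 7 day 28 libraries (10.96 CPM or more) lay above all undamaged ones (8.96 CPM or less). The rise was called at day 7 (1.47 ± 0.41, adjusted p = 0.00964), at day 14 (2.72 ± 0.44, adjusted p = 0.000113) and at day 28 (2.14 ± 0.40, adjusted p = 0.00117; without B6 and E2 1.77, adjusted p = 0.0066). In the fit of time within families, the unprefixed day 28 change of C2, read in the negative gate, was 0.43 ± 0.56, adjusted p = 0.827, and was not called. The 3 unprefixed day 28 libraries (10.96 to 12.7 CPM) lay above the 5 unprefixed undamaged ones (4.64 to 8.96 CPM). Within gates, with the families pooled, the rise was called in the positive gate at day 14 (3.25 ± 0.58, adjusted p = 0.00357) and day 28 (2.33 ± 0.52, adjusted p = 0.0281). It was not called in the negative gate (1.93 ± 0.63, adjusted p = 0.0981, at day 14 and 1.85 ± 0.58, adjusted p = 0.15, at day 28). The positive day 14 call was lost without D1 (adjusted p = 0.0936), and the positive day 28 call was lost on leaving out B6 (adjusted p = 0.173) or any 1 of the 5 undamaged libraries (adjusted p of 0.0537 to 0.0696). A change in the gate difference was not called for either gene.

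Serping1, the inhibitor, was lower at day 7. It averaged 3313 ± 842 CPM in undamaged hearts (SD, n = 9), 2085 ± 622 CPM at day 7 (n = 6), 2681 ± 847 CPM at day 14 (n = 4) and 3747 ± 252 CPM at day 28 (n = 7). Its fall at day 7 was called (-0.67 ± 0.19, adjusted p = 0.0116), and day 28 was higher than day 7 (0.85 ± 0.20, adjusted p = 0.00607; without B6 and E2 0.86, adjusted p = 0.0124), with 7 day 28 libraries of 3418 to 4061 CPM all above the 6 day 7 libraries of 1512 to 2862 CPM. With the gate of day 7 taken from the file names, Serping1 (-0.86 ± 0.22, adjusted p = 0.00978) and C1ra (-1.09 ± 0.37, adjusted p = 0.0483) were lower at day 7 in the negative gate, 2 of 7 members beside 15.7% of all genes, and 0 of 7 were called in the positive gate by edgeR (3 at an unadjusted p under 0.05), beside 5.34%.

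Counted together, 3 of the 7 members were called at day 7 over undamaged hearts, 2 at day 14, 1 at day 28, and 1 for day 28 over day 7, where 22.8%, 8.98%, 5.39% and 11.6% of all genes were called. At day 7 the share of all genes is large, and Clu, C2 and Serping1 stand among 3048 called genes. Within gates the counts were 2 (positive, day 14), 1 (negative, day 14), 1 (positive, day 28) and 0 (negative, day 28, by edgeR; 1 at an unadjusted p under 0.05 and 1 by DESeq2), beside 1.85%, 4.04%, 1.27% and 1.06% of all genes. Macrophage markers, which include C1qa, C1qb and C1qc, rose at day 7 for 5 of 11 tested, with a summed level of 37.1 to 71.4 CPM at day 7 and 11.1 to 43.7 CPM in undamaged hearts, and their part in the member changes was not tested.

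These pooled changes with time joined families whose undamaged levels differ. In prefixed libraries alone, 1 of 7 members was called at day 7 (C2, 2.07, adjusted p = 0.0116), beside 19.5% of all genes. Clu (1.87, adjusted p = 0.0733) and Serping1 (-0.39, adjusted p = 0.241) did not pass there. In unprefixed libraries alone, with 2 at day 7, 4 were called and each was lower: C4b (-2.03, adjusted p = 0.00472), C3 (-1.71, adjusted p = 0.0227), C1ra (-1.23, adjusted p = 0.00646) and Serping1 (-0.77, adjusted p = 0.0497), beside 16.2% of all genes. At day 14, where all 4 libraries are prefixed, 4 members were called against prefixed undamaged libraries, all higher, beside 8.5%: Clu (4.07, adjusted p = 0.00361), C2 (3.05, adjusted p = 0.00197), C4b (1.61, adjusted p = 0.0178) and Cfb (3.55, adjusted p = 0.0249). The pooled value of C4b at day 14 had the other sign (-0.37 ± 0.56, adjusted p = 0.78). At day 28 the prefixed libraries alone, without the gate in the fit, gave 5 of 7 members higher, beside 11.6% of all genes.

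Of the other complement genes 31 were tested with time, and at day 7 7 rose and 5 fell, beside 11.5% of all genes called higher and 11.2% called lower. Cfi, the protease factor I that inactivates C3b, rose at day 7 (3.71 ± 0.78, adjusted p = 0.00101), day 14 (3.47 ± 0.82, adjusted p = 0.00657) and day 28 (2.62 ± 0.76, adjusted p = 0.04), and was 0.496 ± 0.903 CPM in undamaged hearts (SD, n = 9), 6.32 ± 4.14 CPM at day 7 (n = 6), 5.37 ± 3.66 CPM at day 14 (n = 4) and 2.97 ± 2.32 CPM at day 28 (n = 7). The others named at day 7 were Cr1l (-0.79 ± 0.12, adjusted p = 3.87e-05), a membrane regulator, Cd93 (-1.998 ± 0.46, adjusted p = 0.00214), C1rl (-0.60 ± 0.17, adjusted p = 0.0115) and Colec12 (-0.50 ± 0.15, adjusted p = 0.0156), which all fell. C1qa, C1qb, C1qc, C5ar1, Itgb2 and Susd4 were the others that rose. Endothelial markers fell at day 7 for 6 of 6, with a sum of 104 to 177 CPM at day 7 against 190.2 to 351 CPM in undamaged hearts, and their part in the Cd93 value was not tested. At day 14 C1s2 also rose (3.60 ± 0.77, adjusted p = 0.00273). By day 28 Cr1l (0.66 ± 0.13, adjusted p = 0.00127) was above day 7. Cd93 was lower at day 28 than in undamaged hearts as well (-2.15 ± 0.44, adjusted p = 0.00282). Colec10 and Colec11, liver collectins, were also called at day 28, where library B6 alone had 68.3 and 253 CPM and no other library passed 2.53 and 27.9 CPM.

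Across the 26 libraries, C1ra, C4b, C3 and Serping1 varied together, with Pearson correlations of log2 CPM of 0.70 to 0.91 for their 6 pairs. Clu had -0.33 to 0.02 with these 4, and 0.25 to 0.44 with the mean of each time and gate taken out. The libraries share depth, family and sort, and no test was made of these values. With the mean of each time and gate (day 7 from the file names) taken out, Cfb also varied with the other members, at 0.91 with C4b and 0.88 with C3. Among 8836 genes outside the complement lists, those most like each member over the 26 libraries were H2-D1, Lbp and C1qtnf7 for Serping1 (0.90, 0.89 and 0.89), H2-D1, Rab3d and Xdh for C1ra (0.88, 0.88 and 0.87), H2-K1, H2-T23 and Gbp5 for C4b (0.87, 0.83 and 0.82), Inhbb, Chp1 and Man1a for C3 (0.85, 0.84 and 0.83), Gda, Pdpn and Car13 for Cfb (0.87, 0.87 and 0.84), Ptpn13, Pvrl2 and Cpz for Clu (0.89, 0.85 and 0.83), and Col6a5, Cxcl12 and Plscr1 for C2 (0.87, 0.77 and 0.76).

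**Figure D4:**
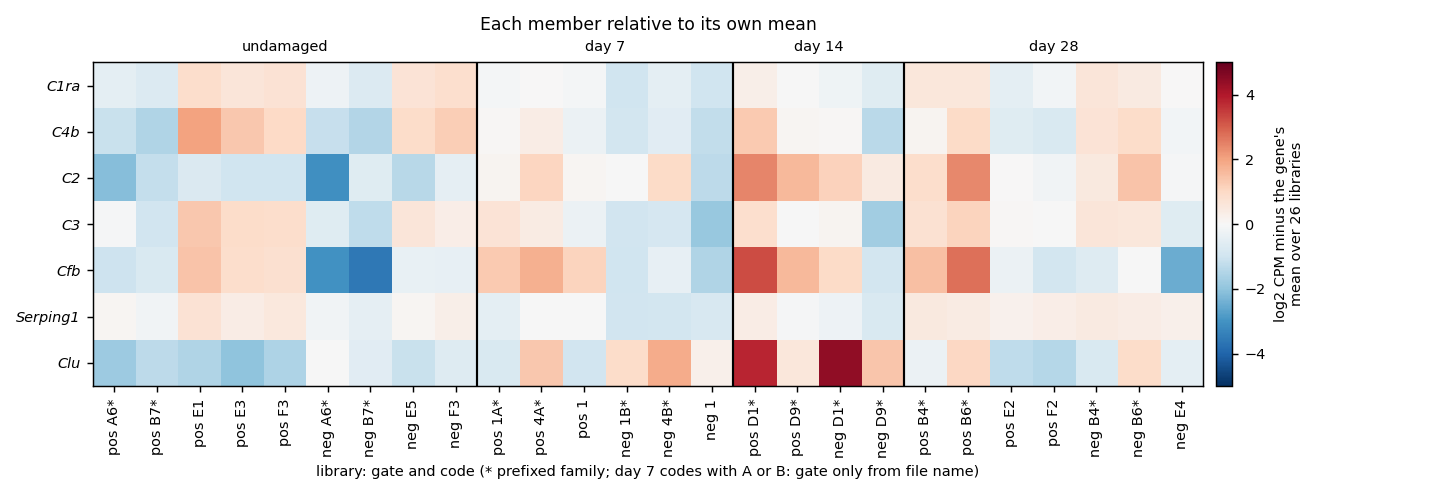
Log2 CPM of each member minus its own mean over the 26 libraries (colour), with libraries in columns by time, gate and family. C1ra, C4b and C3 lie below their mean in the prefixed undamaged libraries (starred) and above it in the unprefixed ones, as Cfb does in the positive gate, and Clu is highest in the D1 libraries of day 14.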

How the data were processed

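RNA was sequenced from 26 libraries with a stranded, paired-end messenger RNA protocol, per the labels' protocols. The submitters' processing notes name bcl2fastq, TopHat, Bowtie2, STAR, Cufflinks and the mm10 build; the counting program and its use of strand are not given in the sources used here. The authors deposited raw read counts for 24421 gene symbols a library, plus 2 entries that name no gene (5.53 to 55.8% and 0.128 to 0.646% of reads), which were left out of library sizes and tests. The symbols matched GENCODE M21 for 23376 genes (95.7%).

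Counts were scaled by TMM and tested with edgeR 4.0.16 (R 4.3.3, limma 3.58.1) by its quasi-likelihood test after its standard filter on low counts, on all genes, with Benjamini-Hochberg adjustment and a threshold of 0.05. All p-values come from these fits and are two-sided. Values after ± are SEs for log2 differences and SDs for CPM. Fits took gate and time together (20 libraries, day 7 left out), time alone (26 libraries), or family with gate. Scripts were tested on simulated data.

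Members and gene lists were chosen with earlier results of these data known. Named genes were the 7 members, up to 6 called genes per comparison from 50 other complement genes, and the 3 most correlated genes of each member. A gene that this rule names is not reported here. Genes of liver, Xist and Ly6a were added after their values were seen, as were the fit of time within families and the settings without the D1 libraries or without B6 and E2. Same-code libraries of the gates deviated together from their group means (7 pairs, r of 0.184 to 0.412), a pairing taken from the data and not stated in the labels. Different codes within the unprefixed family did so too (r of 0.196 to 0.389), so there r does not separate code from family. Within the prefixed family different codes had 0.0536 to 0.113 in undamaged and day 28 hearts. At day 14, groups of 2 libraries fix r of same and different codes at 1 size with opposite signs (0.412 and -0.412). Blocked values are given where they change a call. Alternatives were DESeq2 1.42.0, other size factors, no filter, the block, each family alone and libraries left out. Depth was 6792786 to 48836726 reads; the limit of 3 counts covers counting error only.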

Additional observations from a re-analysis of the deposited data

Results flagged for a closer look

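The change between undamaged hearts and day 28 differed between prefixed and unprefixed libraries, by the interaction term of the edgeR fit, for 6 members. The prefixed change minus the unprefixed change was 4.96 for Cfb, 3.77 for C4b, 2.46 for C3, 2.18 for C2, 2.01 for C1ra and 0.72 for Serping1 (log2). This test joins the family differences of both times that are given above, and adds no separate evidence. A gap test over each member in each labelled group of 4 or 5 libraries (21 tests) found no library far from the others, and the day 14 groups of 2 could not be tested.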

How the results depend on the processing

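Depth limits the low members, of which C2 had 17 reads in 1 library, and 2 day 14 libraries a gate limit what a change within a gate can show. Of 105 alternative member counts other than leaving out 1 library, 86 lay within 1.5 times the reported count. Of 721 values of single members, 667 kept their side of the threshold, and those called kept their direction. Values called in neither fit count among the 667 even where their sign differed. With the replicate block, 2 members were called between the gates in undamaged hearts, 2 at day 14 and 1 at day 28, against 0 each without it (4.19%, 0.434% and 0.717% of all genes called in the same fits; the shares below are of this kind). DESeq2 called 2 at day 14 (6.24%) and 1 at day 28 (3.16%) in the negative gate. In unprefixed libraries alone, 1 was called between gates in undamaged hearts (4.45%), 4 lower at day 28 in the positive gate (14.1%), 1 lower at day 28 in the negative gate (4.37%), 2 lower at day 28 over both gates (13.1%) and 0 for day 28 over day 7 (3.03%). In prefixed libraries alone, 1 was called at day 14 in the positive gate (0.885%), 3 in each gate at day 28 (1.56% positive, 4.38% negative), and over both gates 1 at day 7 (19.5%), 4 at day 14 (8.5%), 5 at day 28 (11.6%) and 2 for day 28 over day 7 (13.8%). Without the 3 undamaged libraries with the fewest detected genes, 5 were called at day 7 (25.7%). Without B6 and E2, 0 were called at day 28 in the positive gate (0.284%).

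Of the values called in either fit, 6 changed sign, each in libraries of 1 family alone. Sign changes of values called in neither fit are not listed. In unprefixed libraries alone, Cfb at day 28 was -1.67 in the positive gate and -2.09 in the negative gate. In prefixed libraries alone, C1ra at day 28 was 1.16 in the positive gate and 1.05 over both gates, and C4b over both gates was 1.61 at day 14 and 1.99 at day 28. The cause was not tested. Leaving out 1 library at a time gave 3 to 5 members called between the families at day 28, and 4 to 5 in undamaged hearts. It gave 4 to 7 for the difference in change. For the change within a family, read in the negative gate, it gave 2 to 4 (unprefixed) and 6 (prefixed). It gave 0 to 2 at day 14 and 0 to 1 at day 28 in the positive gate, 0 to 1 at day 14 in the negative gate, and 3 to 4 at day 7 over both gates. C1ra gained a call there.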
